A study of Bos taurus with 18 samples.

Results

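miR-190a is a microRNA (miRNA) of middling level in the rumen papillae (rank 234 of 468 tested by mean level), the finger-like projections of the forestomach wall through which fermentation products are absorbed. It was followed here together with its paralog miR-190b and with the other strand of its own hairpin, which the library files list only under a human name, hsa-miR-190a-3p. In the files the paralogs are bta-miR-190a and bta-miR-190b, here miR-190a and miR-190b. These are 3 of the 966 miRNA names in the library files, or 3 of 824 miRNAs once names at the same position are merged. They were found by their names. miR-190a was selected on its measured read counts, which were lower in the supplemented arm on both diets, so every supplement difference of miR-190a below is a description with no p of its own, and the same was kept for the other 2 members. The fits over all miRNAs do include miR-190a in that contrast, so nothing about it is read from their calls there.

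The libraries came from papilla biopsies of 9 Holstein cows with a rumen cannula that were not in milk, and the labels used here give no ages. The first biopsies were taken on an all-forage diet (FD) and the later ones on a grain diet (HG) with 65% concentrate, so the diets also differ in time. A supplement labelled PHY, whose composition the labels leave out, went to 4 cows, and 5 cows were controls (CON). This gave 4 libraries in HG_PHY, 5 in HG_CON, 4 in FD_PHY and 5 in FD_CON. The labels do not state if FD_PHY cows were receiving it at their biopsy. Libraries carry the numbers 1 to 4 or 1 to 5 in each group, and the labels do not say whether a number stands for the same cow on both diets. A biopsy holds several cell types, so fewer cells of a type and less of a miRNA per cell cannot be told apart.

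A miRNA hairpin gives 2 strands, of which usually one is loaded into the silencing complex and the other is discarded. The loaded strand pairs with messenger RNAs mainly through a short stretch near its 5′ end, the seed, and lowers their stability and translation. miR-190a and miR-190b are known to share that seed and are listed as one family. In mouse neurons miR-190 is known to act on the neuronal transcription factor NeuroD, and in human cells on the phosphatase PHLPP, a brake on AKT signalling.

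In the library files miR-190a lies on chromosome 10 at 47321075 to 47321096 on the minus strand and its 3p strand at 47321112 to 47321132, while miR-190b lies on chromosome 3 at 16374614 to 16374634 on the plus strand. No source used here names the genome build of these positions. In the files the 5p strand has the lower start in 53 of 53 minus-strand hairpins with both strands listed, as in 76 of 76 on the plus strand, so the order of strands within a minus-strand hairpin does not follow the genome. In the RefSeq annotation of another build, ARS-UCD2.0, the miR-190a gene MIR190A lies within TLN2, which encodes the focal-adhesion protein talin 2. MIR190B lies within the span of UBAP2L there, between CFAP141 and the tropomyosin gene TPM3. Whether they lie in introns or exons was not determined here.

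Between 5739789 and 15204018 reads were counted per library, each once per miRNA. Levels are CPM (counts scaled to a common library total) after TMM scaling, with scaling factors between 0.815 and 1.10. The summed level of epithelial marker miRNAs was high in every library. For the miR-200 family, typical of epithelia, it lay between 24689 and 38299 CPM over the 18 libraries. The adjusted count of miR-190a and of miR-190b was 0.5 of the raw count in 18 of 18 libraries, within 0.01 reads, because the authors list each under a bovine and a human name. No reads beyond that were split, so the 2 paralogs shared none. The reads of hsa-miR-190a-3p were not split (ratio 1, 18 of 18 libraries).

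miR-190a gave 3535 reads in all, with 49 to 531 per library. In HG_PHY it stood at 7.48, 12.5, 9.25 and 4.59 CPM in libraries 1 to 4, and in HG_CON at 32.6, 12.9, 38.2, 8.88 and 42.2 CPM in libraries 1 to 5. FD_PHY had 8.78, 6.56, 10.1 and 6.59 CPM, and FD_CON had 45.3, 23.4, 46.3, 8.86 and 41.4 CPM. All 8 PHY libraries were therefore low. Among controls, libraries 1, 3 and 5 were high on both diets, library 4 was as low as the PHY libraries on both diets, and library 2 lay between. The groups overlapped on both diets, through control library 4.

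**Figure D1:**
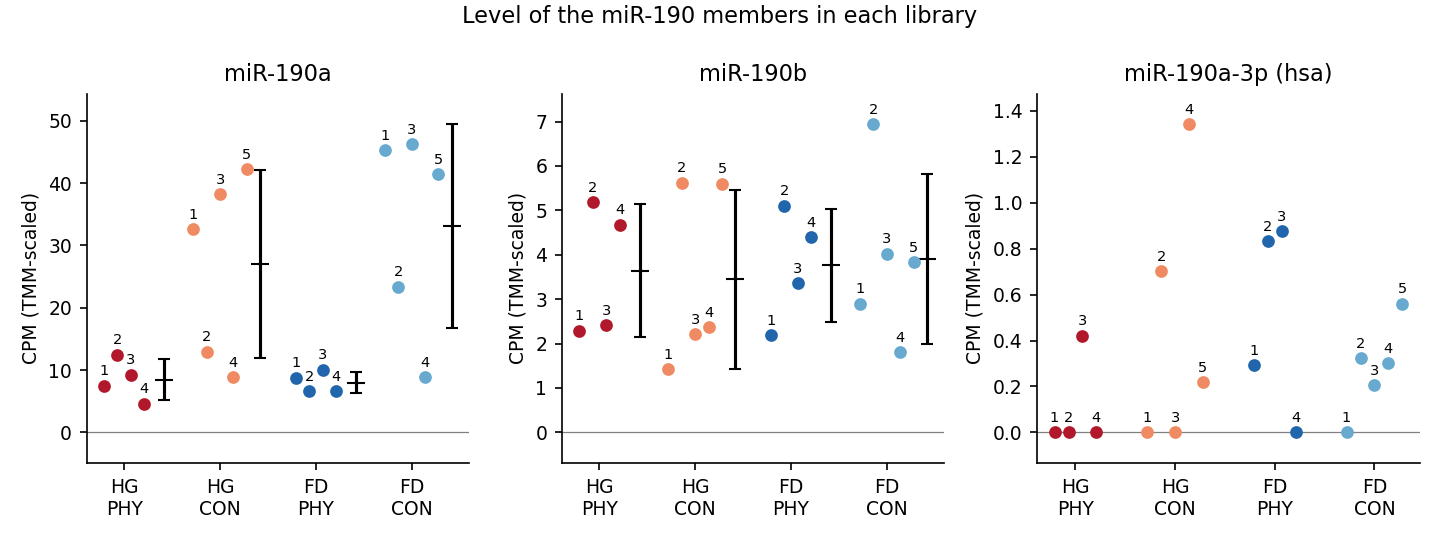
CPM of miR-190a, miR-190b and hsa-miR-190a-3p (vertical axes, each with its own scale) in the 18 libraries by group, with the library number beside each point. Bars give mean ± SD for the first 2 members. For miR-190a the PHY libraries sit between 4.59 and 12.5 CPM, and control libraries 1, 3 and 5 at 32.6 CPM or more.

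The mean of miR-190a was 8.44 ± 3.29 CPM in HG_PHY (SD, n = 4) and 26.96 ± 15.1 CPM in HG_CON (SD, n = 5). On forage it was 7.998 ± 1.73 CPM in FD_PHY (SD, n = 4) and 33.04 ± 16.4 CPM in FD_CON (SD, n = 5). The spread was far wider among controls, with a coefficient of variation of 56.0% in HG_CON and 49.6% in FD_CON, against 38.97% in HG_PHY and 21.6% in FD_PHY. Within each arm the means on the 2 diets differed by less than 1 SD. The fitted log2 difference of PHY from CON was -1.68 ± 0.47 (SE) on grain, or 0.313 times the control level, and -2.05 ± 0.48 (SE) on forage, or 0.241 times. In both it was the second lowest (rank 2) of the 468 miRNAs tested, beside medians over all tested miRNAs of 0.00 and -0.04. These values are the ones that miR-190a was chosen for. edgeR's quasi-likelihood test called 0 of 468 miRNAs at an adjusted p under 0.05 in each of these comparisons (0% called), with 32 at an unadjusted p under 0.05 on grain (6.84%) and 22 on forage (4.7%). DESeq2 called 2 on grain and 1 on forage. Both counts include miR-190a, which was chosen on these same values, so its calls are no test of it. limma-trend on the authors' normalized table called 0 in both.

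Counting error was small beside these gaps. With 86 reads, control library 4 on grain had an exact 95% Poisson interval of 7.10 to 11.0 CPM, and the highest PHY library on grain, number 2, one of 10.2 to 15.04 CPM. Control library 1 on grain, the lowest of numbers 1, 3 and 5 there, had 28.3 to 37.4 CPM. Such intervals cover counting error only. Leaving out control library 4 on both diets, a choice made after seeing the data, moved the log2 difference to -1.90 on grain and -2.29 on forage. That library is the one through which the arms overlap, so a wider gap without it follows from the choice.

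Among controls the level of miR-190a went with the library number. Control number 4 had 8.88 CPM on grain and 8.86 on forage, and number 5 had 42.2 and 41.4. Libraries with the same number differed by at most 1.81 times in controls and 1.90 times in PHY, while the means of the 5 control numbers spanned 8.87 to 42.2 CPM, a range of 4.76 times. The 4 PHY numbers spanned 5.59 to 9.66 CPM, or 1.73 times. From high to low, numbers 3, 1 and 4 kept that order on both diets, while number 2 was the highest on grain and level with number 4 on forage, at 6.56 against 6.59 CPM.

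**Figure D2:**
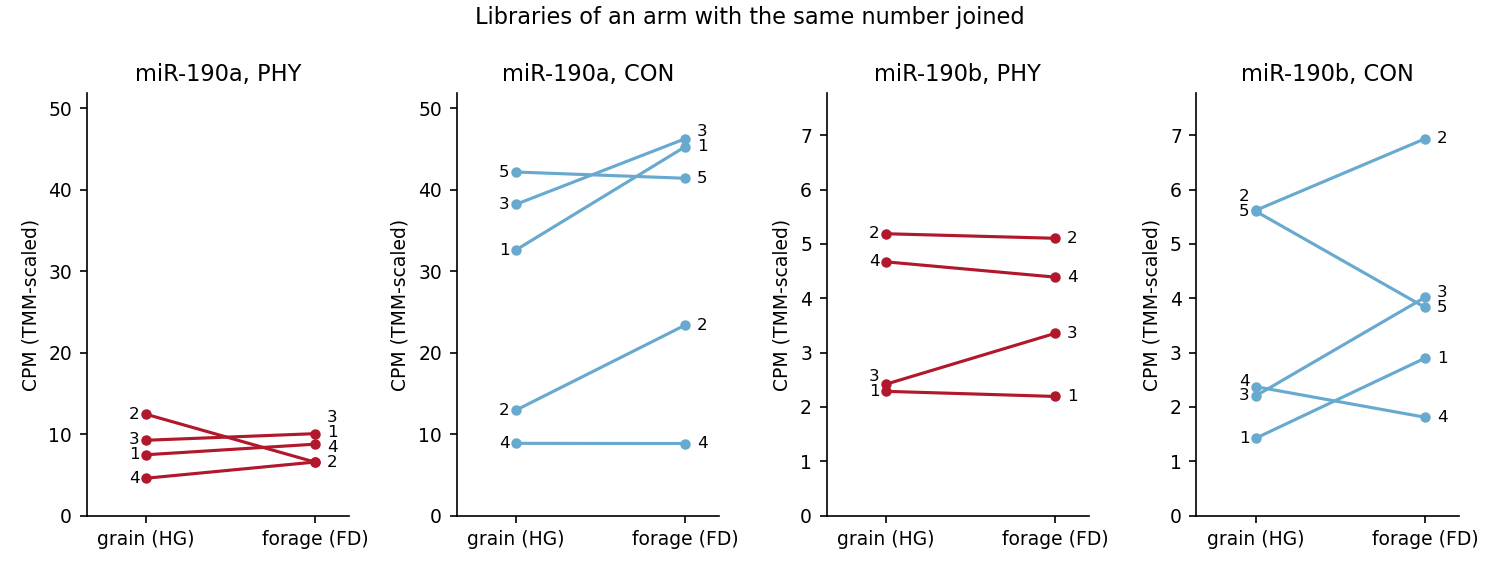
CPM of miR-190a (left panels) and miR-190b (right panels), each with PHY left of CON, on grain and on forage, with libraries of an arm that carry the same number joined by a line. Control numbers keep apart for miR-190a, from number 4 near 8.87 CPM to numbers 1, 3 and 5 at 32.6 CPM or more on either diet.

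This was set beside all 468 tested miRNAs as a ratio of mean squares, the one between numbers within arms over the residual one, on log2 CPM after removing the group means. The measure was chosen after the values were seen and does not use the difference between arms. The ratio was 10.4 for miR-190a, rank 7 of 468, and 5.50 for miR-190b, rank 30, beside a median of 1.62. By the mean square between numbers alone, miR-190a ranked 27 and miR-190b 71. For miR-190a the SD between numbers was 0.74 log2 units against a residual SD of 0.34, and the medians over all tested miRNAs were 0.15 and 0.35. Its residual spread was thus like that of other miRNAs, and its spread between numbers, pooled over the arms, was larger. In PHY alone the means of the numbers spanned 1.73 times, and same-numbered libraries differed by up to 1.90 times. The 6 tested miRNAs nearest to it in mean level (19.7 to 20.9 CPM) had SDs between numbers of 0.00 to 0.33 log2 units.

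**Figure D3:**
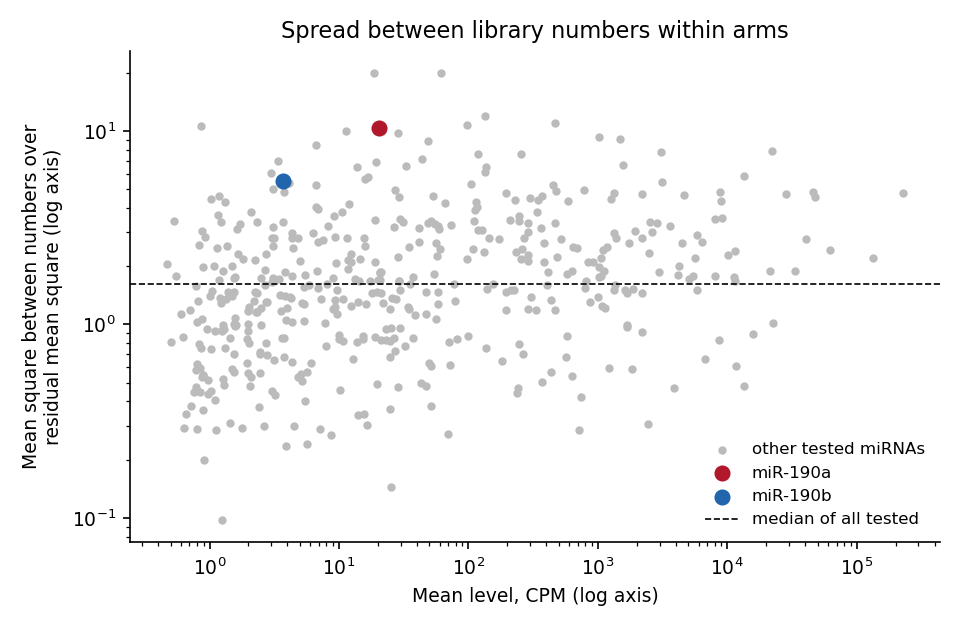
Ratio of the mean square between library numbers to the residual mean square (vertical log axis) against mean CPM (horizontal log axis) for 468 tested miRNAs. miR-190a stands at 10.4 and miR-190b at 5.50, above the dashed median of 1.62.

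The diet comparison was not used to choose the members and was tested in the model of the 4 group means. miR-190a had a log2 difference of -0.11 ± 0.32 (SE) between grain and forage over both arms (edgeR adjusted p = 0.918). Within arms it was 0.08 ± 0.49 in PHY (adjusted p = 0.988, edgeR) and -0.30 ± 0.42 in controls (adjusted p = 0.902, edgeR). It was higher on grain in 1 of 4 PHY numbers and in 2 of 5 control numbers. The diet by supplement interaction, which is built from the same 4 means as the choice of miR-190a, was 0.37 ± 0.64 (adjusted p = 0.997, edgeR). These SEs come from a fit with no term for the library number, so they include the spread between numbers. Taken as they are, they leave room for sizeable diet differences in either direction. Over all 468 miRNAs edgeR called 1 between the diets (0.214%), miR-320a, which is no member, with 50 at an unadjusted p under 0.05 (10.7%). It called 0 (0%) in PHY, in controls and for the interaction, with 33 (7.05%), 50 (10.7%) and 10 (2.14%) at an unadjusted p under 0.05, and DESeq2 and limma-trend also called 0 in these 3.

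The paralog miR-190b was scarcer, with 654 reads in all (9 to 86 per library). On grain it had 2.29, 5.19, 2.42 and 4.67 CPM in HG_PHY, and 1.42, 5.62, 2.204, 2.37 and 5.602 CPM in HG_CON. On forage it had 2.19, 5.10, 3.36 and 4.39 CPM in FD_PHY, and 2.90, 6.94, 4.02, 1.81 and 3.83 CPM in FD_CON. The arms overlapped almost fully on both diets. Number 2 was the highest in each group, in HG_CON level with number 5 (5.62 against 5.602 CPM). The arms hold different cows, so number 2 of PHY and number 2 of CON are not the same cow. Means were 3.64 ± 1.503 CPM in HG_PHY (SD, n = 4), 3.44 ± 2.01 in HG_CON (SD, n = 5), 3.76 ± 1.27 in FD_PHY (SD, n = 4) and 3.90 ± 1.91 in FD_CON (SD, n = 5), which lie within 1 SD of each other. The log2 difference of PHY from CON was 0.08 ± 0.45 (SE) on grain and -0.05 ± 0.45 on forage, and its sign depended on single libraries.

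miR-190b also went with the library number, more plainly in PHY than in controls. PHY number 1 had 2.29 CPM on grain and 2.19 on forage, and number 2 had 5.19 and 5.10. Number 3 had 2.42 and 3.36, and number 4 had 4.67 and 4.39, so the PHY numbers kept their order. Same-numbered libraries differed by 1.02 to 1.39 times in PHY and by 1.23 to 2.04 times in controls. The means of the numbers spanned 2.24 to 5.15 CPM in PHY and 2.09 to 6.28 CPM in controls. From high to low, the control numbers ran 2, 5, 4, 3 and 1 on grain. On forage they ran 2, 3, 5, 1 and 4, so only number 2 kept its place. The order of the control numbers was not that of miR-190a. Number 1, high for miR-190a, had only 1.42 and 2.90 CPM of miR-190b, and number 2, between the others for miR-190a, was the highest for miR-190b. Between grain and forage the log2 difference of miR-190b was -0.11 ± 0.32 over both arms (edgeR adjusted p = 0.918), -0.05 ± 0.48 in PHY (adjusted p = 0.993, edgeR) and -0.17 ± 0.43 in controls (adjusted p = 0.953, edgeR), with an interaction of 0.12 ± 0.64 (adjusted p = 0.997, edgeR).

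hsa-miR-190a-3p, the other strand of the miR-190a hairpin, gave only 57 reads and had reads in 11 of 18 libraries. It did not pass the filter on low counts, which 2 of the 3 members passed, so it was not tested. It made up 1.59% of the hairpin's 3592 reads (exact 95% binomial interval 1.204% to 2.05%). On grain it had 0, 0, 4 and 0 reads in HG_PHY, and 0, 7, 0, 13 and 2 reads in HG_CON. On forage it had 2, 8, 6 and 0 reads in FD_PHY, and 0, 4, 2, 3 and 6 reads in FD_CON. A library without reads allows up to between 0.234 and 0.475 CPM, the level of 3 reads there, so most of these values lie near the limit of detection.

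By these few reads, the 3p strand did not follow the 5p strand among control numbers. With both libraries of a number added, control number 4, low in miR-190a, gave 16 reads of the 3p strand among 190 hairpin reads, or 8.42% (exact 95% binomial interval 4.89% to 13.3%). Of its 3p reads, 13 came from the grain library alone, as 2 distinct sequences. The intervals given here cover counting error only. Control number 1, high in miR-190a, gave 0 among 737 (exact upper limit 0.499%, or 0.407% as 3 reads of the total), number 3 gave 2 among 815 (0.245%, interval 0.0297% to 0.884%) and number 5 gave 8 among 835 (0.958%, interval 0.415% to 1.88%). Control number 2 gave 11 among 430 (2.56%, interval 1.28% to 4.53%). The PHY numbers 1 to 4 gave 2 of 111, 8 of 179, 10 of 167 and 0 of 128 reads. Control numbers 1, 3 and 5 thus had more reads of the 5p strand than numbers 2 and 4, and fewer of the 3p strand.

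The ratio of the paralogs within a library does not depend on how libraries are scaled. miR-190a had 3.19, 2.38, 3.77 and 0.983 times the reads of miR-190b in HG_PHY, and 21.7, 2.29, 17.0, 3.68 and 7.47 times in HG_CON. It had 3.90, 1.28, 2.96 and 1.49 times in FD_PHY, and 15.4, 3.36, 11.4, 4.78 and 10.7 times in FD_CON. In HG_PHY library 4 both paralogs were about equally abundant, while in control library 1 miR-190a led by the widest margin on both diets. Between arms this ratio contains the choice of miR-190a and was not tested. Its mean log2 value was 2.15 ± 1.43 on grain and 2.15 ± 1.27 on forage (SD, n = 9 each), a difference of -0.00 (exact permutation test, two-sided, p = 0.997, and 0.997 adjusted over the 2 ratios tested). The difference within arms was 0.09 in PHY and -0.07 in controls. The log2 ratio of miR-190a to its 3p strand was 6.43 ± 2.27 on grain and 5.82 ± 2.23 on forage (SD, n = 9 each), a difference of 0.61 (exact permutation test, two-sided, p = 0.569, adjusted p = 0.997), with 1.89 in PHY and -0.41 in controls. In the 7 libraries without reads of the 3p strand this ratio is set by the added 0.5 and so by depth. The difference was 0.22 without HG_CON library 3, 1.14 without FD_CON library 1, 0.08 without both libraries of PHY number 2, and 0.34 with 1 added in place of 0.5. Both permutation tests took the libraries as independent and ignored arm and number. The spread between arms and numbers therefore enters their p-values, which leave room for diet differences in either direction.

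**Figure D4:**
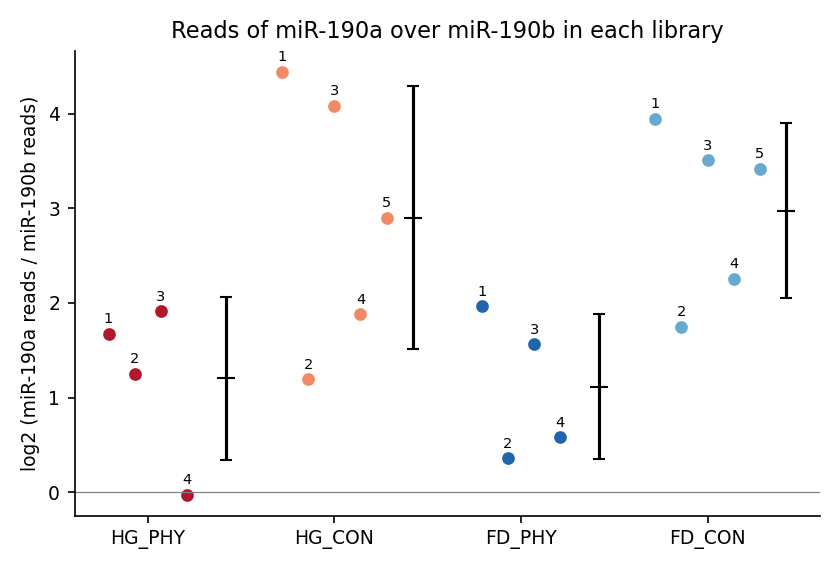
log2 of miR-190a reads over miR-190b reads (0.5 added to each) in the 18 libraries by group, with library numbers and mean ± SD. HG_PHY library 4 lies near 0, where both have equal reads, and control libraries 1 and 3 lie highest on both diets.

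The miRNAs most like miR-190a over the 18 libraries were miR-677 (Pearson r = 0.579 of log2 CPM), miR-2285ag-3p (0.579), miR-2285bt (0.551), miR-885 (0.517) and miR-708 (0.509). After removing the group means they were miR-11973 (r = 0.650), miR-885 (0.638), miR-363 (0.616), miR-411c-3p (0.589) and miR-211 (0.570). These are the 5 highest of 467 by each measure, the libraries share arms, diets and possibly cows, and miR-885 was the one in both sets. Several of them were scarce. miR-11973, miR-2285ag-3p, miR-411c-3p and miR-2285bt had mean levels of 0.868 to 1.23 CPM, so counting error weighs on their correlations. miR-2285ag-3p and miR-411c-3p had no reads in some libraries. The paralog miR-190b was far from the miRNAs most like miR-190a, with r = 0.00494 (rank 215) by level and 0.0725 (rank 170) after removing the group means. miR-2411-3p, which lies on chromosome 3 like miR-190b, had r = -0.302 with miR-190b by level. It lies at 16327566 to 16327590 on the minus strand, opposite to that of miR-190b.

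Marker miRNAs of cell types in the biopsies were compared between the arms because of their possible bearing on miR-190a. edgeR called 0 of the 35 tested members of 8 marker lists in PHY against CON on either diet. Of all tested miRNAs, 49.8% were below 0 on grain and 55.6% on forage. Muscle markers were below 0 in 4 of 4 tested members on both diets (median log2 difference -0.22 on grain and -0.24 on forage). Endothelial markers, the 2 strands of miR-126, were so in 2 of 2 (-0.18 and -0.17). The summed levels of both lists overlapped between arms. Muscle markers summed to between 102603 and 112167 CPM in HG_PHY and between 103191 and 133027 CPM in HG_CON, and to between 129264 and 166118 CPM in FD_PHY and between 138598 and 297899 CPM in FD_CON. Endothelial markers summed to between 9452 and 12984 CPM in HG_PHY and between 11568 and 14189 CPM in HG_CON, and to between 13013 and 14857 CPM in FD_PHY and between 13366 and 16158 CPM in FD_CON. Neural and endocrine markers were below 0 in 5 of 7 tested members on grain (median -0.21) and in 1 of 7 on forage (median 0.19). They summed to between 1682 and 2384 CPM in HG_PHY and between 1786 and 2849 CPM in HG_CON, and to between 1865 and 2491 CPM in FD_PHY and between 1554 and 2282 CPM in FD_CON. The other 5 lists had medians between -0.31 and 0.18 on grain and between -0.25 and 0.18 on forage. The medians over all tested miRNAs were 0.00 and -0.04. Some of these lists were as one-sided, but on 1 diet only. Erythroid markers were below 0 in 3 of 3 on grain and 1 of 3 on forage, and mesenchymal markers in 1 of 4 and 4 of 4. Leukocyte markers were below 0 in 4 of 6 on grain and 0 of 6 on forage. For the miR-200 family it was 2 of 5 and 4 of 5, and for stratified epithelium 1 of 4 and 3 of 4. None of the markers found was at 0 over all libraries, the scarcest being miR-137 with 24 reads in all. The part of these cell types in the level of miR-190a was not tested.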

How the data were processed

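Per the file headers, each library file gives for every miRNA name a raw read count, the number of distinct read sequences, an expected count that the authors divided over names and loci, and RPM values, which the authors scaled to reads assigned to miRNAs or to all reads and which served here only to find the totals (19517489 to 42651162 reads in all). The deposited table of 673 names holds a normalized signal. With 1 factor per library, 100% of its values became whole reads within 0.01 reads. Per the submitters' processing notes, bcl2fastq 2.20 and DESeq2 were used. Aligner and build: not given in the sources used here.

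Names were merged where positions overlapped by 15 nt or more, or where the bovine and human names of a miRNA had totals within 5%, and the name with the most reads was kept. Raw counts of 468 miRNAs that passed filterByExpr were tested with edgeR 4.0.16 (R 4.3.3, TMM, quasi-likelihood test, 1 mean per group, no term for the library number, Benjamini-Hochberg adjustment over all, threshold 0.05, two-sided). SE is the log2 difference divided by the root of F. The 18 libraries of 9 cows entered as independent, so p-values measure only the spread between these libraries. Alternatives used DESeq2 1.42.0, limma 3.58.1, other counts and left-out libraries. Ratios had 0.5 added to each count and exact permutation tests (SciPy 1.17.1), and log2 CPM for the correlations had a prior count of 2. The fit was tested on simulated data with independent libraries and no effect of the library number, which cannot speak to dependence between same-numbered libraries. The members, the marker lists and the rule for named miRNAs (the members, the 5 most correlated by each measure, 3 neighbours in level on each side) were chosen with earlier results of these data known. miR-203, a marker of stratified epithelium, was not analysed here.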

Additional observations from a re-analysis of the deposited data

Results flagged for a closer look

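In HG_PHY, hsa-miR-190a-3p stood at 0.421 CPM (4 reads) in library 3 and had 0 reads in the other 3 libraries, which set library 3 apart from its group. It was the 1 case among 20 groups of values examined. A group in which 1 library alone has reads is set apart by construction.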

How the results depend on the processing

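Neither paralog passed the threshold for diet or interaction in any alternative run that gave it an adjusted p (lowest 0.575, edgeR with the replicate block). For diet over both arms DESeq2 gave no adjusted p to either paralog. The difference of PHY from CON in miR-190a kept its sign in all, from -1.96 to -1.45 on grain and -2.29 to -1.89 on forage with 1 library left out. Since miR-190a was chosen for this sign, its staying is no test of the difference. The count between diets, 1, was 12 with DESeq2, 3 with no filter, 4 with the replicate block, 2 with limma-trend on the authors' table, 2 with every name, 2 on recovered reads, 0 without both libraries of CON 1, CON 4, CON 5, PHY 1, PHY 2 or PHY 3, and 0 to 3 with 1 library left out. The count of PHY against CON on grain, 0, was 2 with DESeq2, 3 without both libraries of CON 4, and 0 to 2 with 1 library left out (2 without HG_CON 4). On forage, 0 became 1 with DESeq2, with no filter and without both libraries of CON 4, and 0 to 1 with 1 library left out (1 without FD_CON 4). With DESeq2 and without both libraries of CON 4 these counts include miR-190a, and the 1 on forage with no filter is miR-190a. It was chosen on this contrast, so these calls are no test of it. The 2 without HG_CON 4 alone were both higher in PHY and so do not include it. The 1 without FD_CON 4 alone was lower in PHY, and its name was not listed.

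Some diet differences near 0 changed sign. In PHY, miR-190a went to -0.28 without both libraries of PHY 2 (range with 1 library left out -0.20 to 0.30) and miR-190b to 0.0697 without both of PHY 3 (-0.30 to 0.13). The interaction of miR-190b was -0.0093 without both libraries of CON 3 (-0.14 to 0.36). The log2 ratio of the paralogs was 0.0658 without CON 2, 0.0441 without CON 4, 0.0615 without CON 5, 0.033 without PHY 1 and 0.0723 without PHY 4 (-0.29 to 0.27). The log2 ratio to the 3p strand stayed above 0, from 0.22 to 1.14 with 1 library left out, 0.08 to 0.93 with a number left out and 0.34 to 0.61 otherwise. With 1 library left out, diet over both arms ranged from -0.25 to 0.0065 for miR-190a and -0.23 to 0.022 for miR-190b, and miR-190b in controls from -0.41 to 0.0942. The cause was not tested. Leaving out both libraries of a number and the recovered reads were chosen after seeing the data.

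Same-numbered libraries correlated over 468 miRNAs with r from -0.02 to 0.393, above 0.1 in 3 of 9 pairs, and 2 of 9 correlated best with their own number, so the numbers were not taken as pairs. With the replicate block, diet over both arms was -0.15 for miR-190a (edgeR adjusted p = 0.730) and -0.15 for miR-190b (edgeR adjusted p = 0.823). The low counts of miR-190b (9 to 86 reads) and of the 3p strand limit their precision.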

Other observations

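The miRNAs most like miR-190b, which were looked up after its values were seen, were others than those of miR-190a. By level over the 18 libraries they were miR-152 (r = 0.689), miR-655 (0.663), miR-199b (0.652), miR-376c (0.651) and hsa-miR-29c-5p (0.5998), and after removing the group means miR-152 (0.776), miR-199b (0.744), miR-376c (0.692), miR-655 (0.677) and miR-2285u (0.669), with n = 18 libraries and medians over 467 miRNAs of 0.0390 and 0.0485. miR-199b is known from mesenchymal cells and miR-655 and miR-376c from the imprinted DLK1-DIO3 cluster. The miRNAs with the highest ratio of mean squares for the library number were miR-6524 (19.9), miR-149-5p (19.8), miR-181b (11.9), miR-30f (10.9) and miR-95 (10.7), ahead of miR-190a. A small residual also raises this ratio. miR-181b had an SD between numbers of only 0.167 log2 units, beside a median of 0.155 over all tested miRNAs, and a residual SD of 0.0714. The number of distinct read sequences of miR-190a was 4 to 9 per PHY library and 5 to 23 per control library. It goes with the read count that miR-190a was chosen on, 49 to 108 per PHY library and 86 to 531 per control library. Control library 4, with 86 reads on grain and 88 on forage, had 5 and 7. The number is thus no separate difference between the arms.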
